A study of Mus musculus with 6 samples.

Results

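Solute carriers are membrane proteins that move small molecules across the plasma membrane and the membranes of mitochondria, lysosomes and secretory vesicles, and their genes carry the symbol Slc with a family number. Here, a probe was counted when its gene symbol in the array files began with Slc and a digit and its signal was well above background on all 6 arrays, and 10 genes were left out by name (Slc7a11, Slc3a2, Slc2a1, Slc16a1, Slc16a3, Slc28a2, Slc29a1, Slc29a3, Slc40a1 and Slc11a1). The rule left 249 probes of 196 genes, out of 456 such probes of 347 genes on the array and 55681 non-control probes in all. Of the remaining Slc probes, 12 belonged to the genes left out by name, 142 were well above background on no array and 53 on 1 to 5 arrays. Since a probe had to be well above background in both groups, carriers detected with or without ADP alone could not enter. The level of a probe is its log2 processed signal relative to the 75th percentile of its array. Just inside the rule lay probes of Slc37a4, Slc9a2 and Slc2a5, with mean levels of -4.16, -3.98 and -3.93, and just outside it, well above background on 5 arrays, probes of Slc39a9, Slc16a12 and Slc38a11 at -3.77, -4.15 and -4.24.

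The cells were bone marrow-derived macrophages of C57BL/6 mice, cultured for 7 days with conditioned medium of L929 cells, a mouse fibroblast line that secretes macrophage colony-stimulating factor. One group of 3 samples was exposed to 100 µM ADP for 6 h, and the other group of 3 samples was a control of the same cells at the same time, with no vehicle, sex or age given in the labels. According to the submitters the samples of a group come from independent experiments with different donor mice. One one-colour Agilent array was run per sample. The comparison asks which transporter transcripts differ when macrophages meet extracellular ADP.

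Carriers are grouped below by what they are known to move. In macrophages, amino acid exchangers such as Slc7a5 and Slc1a5 feed growth signalling at the lysosome, zinc importers of the SLC39 family and exporters of the SLC30 family set the zinc content of the cytosol, and mitochondrial carriers of the SLC25 family pass nucleotides, phosphate, metabolites and iron through the inner membrane. Vesicular carriers of the SLC17 and SLC18 families load nucleotides and amines into secretory vesicles. In bulk samples such as these, fewer cells of a type and less RNA per cell cannot be told apart.

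The promoters of 3 carriers are shown because these genes stand out in the values below: Slc23a3 for the largest difference of all 196 genes, Slc1a4 for a large difference within each slide, and Slc39a13 for the smallest p of the zinc transporters. Each sequence runs from 250 bases before to 50 bases after the RefSeq start on assembly GRCm38.p6, 5′ to 3′ on the strand of the gene, which is the minus strand for all 3. The windows are chr1:75133841-75134140 for Slc23a3, chr11:20332664-20332963 for Slc1a4 and chr2:91070266-91070565 for Slc39a13. Capitals mark motif letters found by search. In Slc23a3 and Slc1a4 they mark the amino acid response element TGATGNAA, a motif bound by ATF4, read on either strand. In Slc39a13 they mark the antioxidant response element TGACNNNGC, found 2 times, and next to the second match the metal response element TGCACNC.
Slc23a3: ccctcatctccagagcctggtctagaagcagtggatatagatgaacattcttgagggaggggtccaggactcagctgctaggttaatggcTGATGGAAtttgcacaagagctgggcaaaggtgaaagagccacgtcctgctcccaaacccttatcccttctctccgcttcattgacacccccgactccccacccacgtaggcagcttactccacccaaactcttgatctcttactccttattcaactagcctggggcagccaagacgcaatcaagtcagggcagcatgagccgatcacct
Slc1a4: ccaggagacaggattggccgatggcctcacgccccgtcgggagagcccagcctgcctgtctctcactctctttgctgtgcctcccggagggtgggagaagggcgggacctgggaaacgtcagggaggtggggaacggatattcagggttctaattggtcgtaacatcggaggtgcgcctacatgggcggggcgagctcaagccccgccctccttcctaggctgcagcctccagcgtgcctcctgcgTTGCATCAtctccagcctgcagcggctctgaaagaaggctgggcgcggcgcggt
Slc39a13: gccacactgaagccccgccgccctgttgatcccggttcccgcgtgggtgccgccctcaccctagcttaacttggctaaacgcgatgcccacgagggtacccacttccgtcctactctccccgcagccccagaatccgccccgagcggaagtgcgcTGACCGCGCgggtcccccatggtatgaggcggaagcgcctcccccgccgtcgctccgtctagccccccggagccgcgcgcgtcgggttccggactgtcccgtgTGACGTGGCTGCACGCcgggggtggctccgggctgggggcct
The RefSeq table held 197 promoters for 148 of the 196 genes. Letters of the amino acid response element were in 6 of these (3.05%), against 3.97% of all 32851 promoters of that length. The 6 promoters belonged to Slc1a4, Slc23a3, Slc50a1, Slc9a9 and Slc7a7, the last with 2 promoters, and their differences were not all of 1 sign, with Slc9a9, a sodium-proton exchanger of endosomes, at -0.065 ± 0.12 and the others as given below. The metal response element, searched as TGCACNC or TGCGCNC, was in 66 carrier promoters (33.5%) and 25.7% of all. The antioxidant response element was in 41 (20.8%) and 12.4% of all. The E box CACGTG was in 27 (13.7%) and 7.15% of all, and the cyclic AMP response element TGACGTCA in 4 (2.03%) and 1.79% of all. Such matches describe letters in a window and not bound sites. The carrier promoters were those of genes with signal, while the full set was not limited in that way and was not matched for base content. Overlapping windows of 1 gene were counted separately.

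Between 50.3% and 51.9% of the non-control spots on an array were well above background, and no spot was saturated. Of the macrophage markers, 8 of 8 were well above background on all arrays, as were 2 of 6 T cell markers, Cd3e and Cd4, while Cd3d and Cd3g were above it on none. The summed level of the measured T cell markers was 1.36 to 2.02 (log2) in controls and 1.43 to 2.16 with ADP. Of 5 B cell markers, Cd79b and Cd79a were measured, summing to 2.42 to 2.98 in controls and 2.24 to 2.37 with ADP, and Ms4a1 was above background on no array. Of 5 mast cell and basophil markers only Kit was measured, at -3.19 to -2.41 in controls and -3.64 to -3.25 with ADP, and none of 5 erythroid markers entered the fit. With the slide as a block and trended, robust variances, Cd79b (-0.46) and Kit (-0.84) passed the adjusted test as lower, at 0.031 and 0.0454. Of the macrophage markers, Cd14 (0.87, 0.0211) passed that adjusted test as higher and Mertk (-0.70, 0.0232) as lower. Neutrophil markers were present, with 5 of 7 measured and all 5 above 0 in difference, and their summed level was 4.49 to 4.61 (log2) on control arrays and 4.70 to 4.99 on ADP arrays. All 6 fibroblast markers were measured, with a summed level of 3.65 to 3.79 in controls and 3.71 to 3.85 with ADP, and Dcn passed that adjusted test as higher (0.46, 0.0268). The part of these cells in the differences below was not tested. The arrays came from 2 slides with both groups on each: controls 1 and 2 shared slide 1 with ADP 1, and control 3 shared slide 2 with ADP 2 and 3. Differences within a slide are therefore given too, and those on slide 1 rest on ADP 1 alone and those on slide 2 on control 3 alone. The difference between the slides was larger than that between the groups in 106 of the 196 genes (54.1%), against 59.1% of all features.

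Most carrier transcripts differed little between the groups. The median difference, ADP minus control, was -0.046 (log2) over the 196 genes and 0.0044 over all 19575 features, and 82 carriers (41.8%) were above 0 against 50.8% of all features. That median became 0.032 in the unscaled value table, where all features had a median of 0.082, and 0.0016 without control 3. In the fit of all features by limma without a block, 0 of 19575 features passed a Benjamini-Hochberg adjusted p of 0.05 (0% called), and the smallest adjusted p of a carrier was 0.26. At an unadjusted p under 0.05 stood 29 carriers (14.8%), 13 higher and 16 lower, beside 12.7% of all features called in either direction, 6.55% higher and 6.18% lower. The carriers' shares in this fit lay near the background. The split was 10 higher and 5 lower in the unscaled value table, where all features split into 1228 higher and 326 lower, and 11 higher and 22 lower with normexp, where all features split into 1093 and 1058. The count was 16 without control 1 and 15 without ADP 3, for which the share of all features was not taken. The levels of ADP and control arrays did not overlap for 46 carriers (23.5%), 17 higher and 29 lower, beside 19.4% of all features, 9.67% higher and 9.73% lower. With 3 arrays against 3, an exact two-sided permutation test of a single gene cannot go below 0.1.

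With the slide as a block, 69 carriers (35.2%) had an unadjusted p under 0.05, beside 24.3% of all features called, and 0 passed the adjusted test in limma, as did 0% of all features (smallest adjusted p of a carrier 0.0737). Of the 69, 48 were lower (24.5%; background 13.6%) and 21 higher (background 10.8%). Trended and robust variances without the block gave 0 adjusted calls among the carriers in limma. In that fit 34 had an unadjusted p under 0.05, a count for which the share of all features was not taken. Of these fits, only that with the block and these variances together called carriers: 38 of them (19.4%) passed an adjusted p of 0.05, beside 9.9% of all features called, and 26 were lower (13.3%; background 5.38%) and 12 higher (6.12%; background 4.52%). Of the 38, 23 had groups that did not overlap, beside 19.4% of all features, called or not. The share among called features alone was not taken. Counts of such calls within a class are to be read beside the 4.52% higher and 5.38% lower of all features. Class counts at an unadjusted p without a block are to be read beside 6.55% higher and 6.18% lower. In the sentences below, adjusted p-values are those of limma without a block unless the slide block is named, and called with the slide block means an adjusted p under 0.05 with that block and trended, robust variances, and adjusted p-values given with such calls are from that fit. These calls depended on single arrays: the count was 0 without control 1, 1 without control 3 and 10 without ADP 3, beside 0%, 0.496% and 2.79% of all features. It was between 28 and 37 without each of the other arrays, beside 8.47% to 9.66%. With the median of each array in place of the 75th percentile, the calls were 7 higher and 36 lower, beside 773 higher and 1765 lower of all features.

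**Figure D1:**
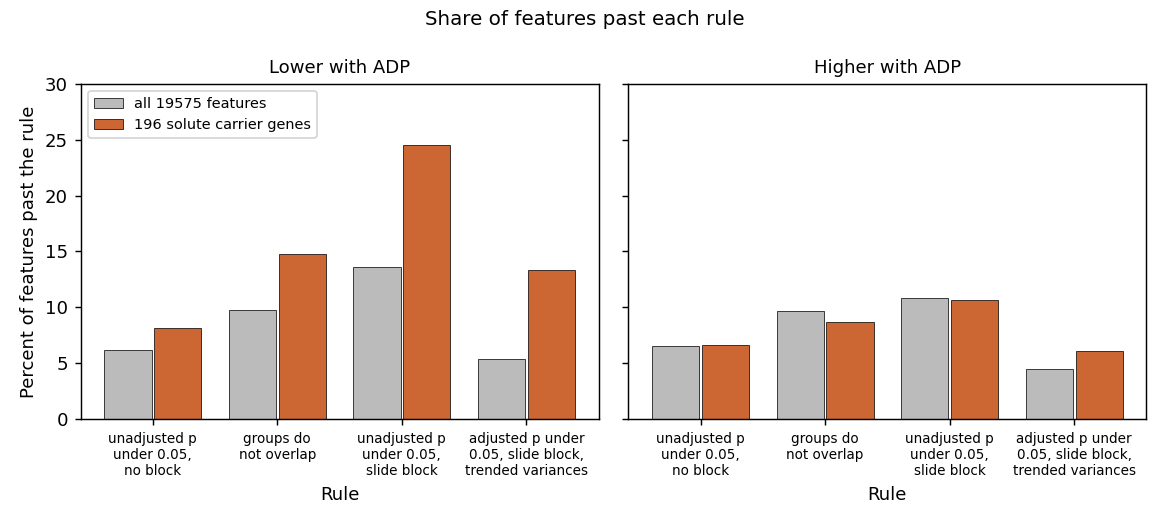
Percent of features past each rule (vertical axis, starting at 0), for genes lower (left) and higher (right) with ADP; grey bars are all 19575 features and orange bars the 196 solute carrier genes. Higher carriers stood near the background under each rule, and the widest gap was for lower carriers with the slide as a block, 24.5% against 13.6%.

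Named genes are those with the smallest unadjusted p among carriers whose groups did not overlap, 12 in each direction, the gene with the smallest p in each class, and a list of well-studied carriers. Another 24 genes were named after their values were seen, many because they were called with the slide block. The 12 higher and 12 lower genes are plotted array by array, and 9 and 10 of them, respectively, were called with the slide block. Since these genes were chosen by p on the same arrays, those calls are no separate check of them.

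**Figure D2:**
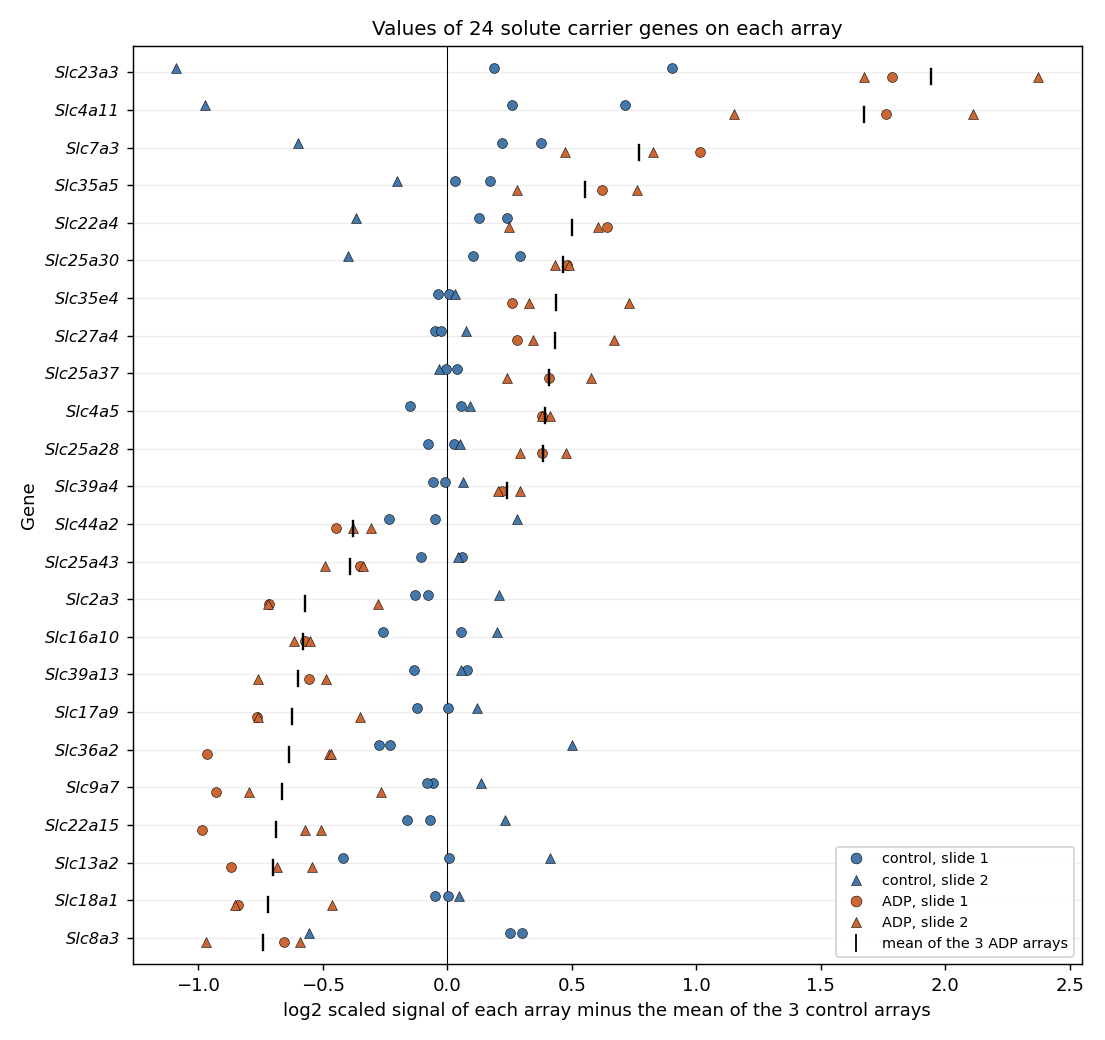
Level on each array minus the mean of the 3 control arrays (log2, horizontal axis) for the 12 carriers higher and the 12 lower with ADP; blue points are control and orange points ADP arrays, circles lie on slide 1 and triangles on slide 2, and black ticks are ADP means. Groups were separate in each row because that was part of the choice, and the blue triangle, control 3, lay far below the other controls for Slc23a3, Slc4a11 and Slc7a3.

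The largest differences of all carriers were for Slc23a3, a member of the ascorbate transporter family, and Slc4a11, a member of the bicarbonate transporter family that conducts protons. They were the 2 carriers that differed at least 2-fold (1.02%), beside 1.51% of all features and 0.954% of features well above background on all 6 arrays. The Slc23a3 probe (mm9 chr1:75122117-75122176) read -2.95, -2.24 and -4.23 on controls 1 to 3 and -1.36, -1.47 and -0.77 on ADP 1 to 3. All ADP arrays were thus above all controls, and control 3 was the lowest by far. The mean difference was 1.94 ± 0.50 (log2, SE, n = 3 arrays per group), a 3.85-fold higher signal (adjusted p = 0.261). Within slides 1 and 2 it was 1.24 and 3.11, and with normexp background correction it was 1.19. Slc4a11 (mm9 chr2:130509952-130510011) read -1.97, -1.52 and -3.21 in controls and -0.47, -1.08 and -0.12 with ADP, again with control 3 lowest. Its difference was 1.67 ± 0.46 (adjusted p = 0.273), and it was 1.27 and 2.60 within the slides. Both genes were called with the slide block, at adjusted p of 0.0304 and 0.0267, and both lay low in the measured range, so that the background correction weighs on their size.

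Amino acid transporters did not share a direction. Of 24 measured, 11 were above 0, and the median was -0.015, turning to 0.025 with the slide block. At an unadjusted p under 0.05 were 1 higher and 2 lower, and 2 higher and 6 lower were called with the slide block. Among the higher, Slc7a3, a transporter of arginine and lysine, read -2.45, -2.29 and -3.26 in controls and -1.65, -2.19 and -1.84 with ADP. The groups were separate by a small gap between control 2 and ADP 2. Its difference was 0.77 ± 0.28 (adjusted p = 0.341), and 0.44 with normexp. Slc7a3 was called with the slide block (adjusted p = 0.0216). Slc1a4, a transporter of alanine, serine and cysteine, read 4.51, 4.44 and 3.66 in controls and 5.88, 4.09 and 4.62 with ADP. These groups overlapped, since ADP 2 was below controls 1 and 2, yet on each slide every ADP array was above every control array. The difference of Slc1a4 was 0.66 ± 0.48 on all arrays (adjusted p = 0.651) and 1.05 ± 0.22 with the slide block, and it was called (adjusted p = 0.0244). Without ADP 1 it was 0.15.

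Among the lower amino acid transporters, Slc16a10, which carries aromatic amino acids and thyroid hormone, read 3.97, 3.66 and 4.11 in controls and 3.34, 3.36 and 3.30 with ADP. The ADP arrays lay close together and below each control, at a difference of -0.58 ± 0.14 (adjusted p = 0.261). A second, dimmer probe of Slc16a10 differed by -0.20 ± 0.17. Slc36a2, a proton-coupled carrier of small amino acids, read 1.08, 1.04 and 1.81 in controls and 0.35, 0.84 and 0.84 with ADP. Its difference was -0.63 ± 0.25 (adjusted p = 0.375), and -0.71 and -0.97 within the slides. Its lysosomal relative Slc36a1 differed by -0.31 ± 0.18 on all arrays and by -0.45 ± 0.08 with the slide as a block. Slc7a6, an exchanger of cationic and neutral amino acids, differed by -0.53 ± 0.09 in that fit, the related Slc7a4 by -0.71 ± 0.12 and the glutamine transporter Slc1a5 by -0.38 ± 0.08, and all 4 were called with the slide block. Slc16a10 and Slc36a2 were called lower in that way too. Without the block the controls and ADP arrays of Slc7a4, Slc7a6 and Slc1a5 overlapped.

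The probes chosen for other well-known amino acid carriers passed neither an unadjusted p of 0.05 without a block nor the adjusted test with the slide block. Slc7a1, the main arginine carrier, differed by -0.12 ± 0.14, and the inducible Slc7a2 by 0.048 ± 0.11, though that turned to -0.0021 with normexp. The Slc7a2 probe was among the dimmest that met the rule, at mean levels of -3.85 in controls and -3.80 with ADP. Slc7a5, a carrier of leucine and other large amino acids, differed by 0.13 ± 0.22, and its other probe by -0.096 ± 0.17. Both Slc7a5 probes were dim, at -2.49 and -2.91 in controls. With the slide as a block the first differed by 0.31 ± 0.09 and was not called. Slc7a8, of similar substrates, differed by -0.043 ± 0.17, and by 0.073 with the slide as a block. Slc7a7 was at -0.0086 ± 0.14 and turned to 0.069 in the unscaled value table. The glutamine importer Slc38a2 read 4.90 to 5.21 in controls and 5.12 to 5.54 with ADP, a difference of 0.27 ± 0.15 (adjusted p = 0.541) with overlapping groups. Slc38a9, the arginine sensor of the lysosome, was at 0.018 ± 0.12 and turned sign with the slide block (-0.027). Its 2 other, dimmer probes gave 0.31 ± 0.12, with an unadjusted p under 0.05, and 0.14 ± 0.45. Of 15 measured genes of the docking of the TORC1 kinase at the lysosome, 0 had an unadjusted p under 0.05 in limma, and the median was 0.047.

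Of 31 carriers of inorganic ions, 12 were above 0, and the median was -0.065, turning to 0.012 in the unscaled value table and 0.011 without control 3. Higher at an unadjusted p under 0.05 were Slc4a11 and Slc4a5, and lower were Slc8a3 and Slc9a7. Slc4a5, a sodium bicarbonate cotransporter, read -3.27, -3.07 and -3.03 in controls and -2.74, -2.71 and -2.74 with ADP, a difference of 0.39 ± 0.11 (adjusted p = 0.273), and 0.20 with normexp. Its probe was dim, and Slc4a5 was not called with the slide block (adjusted p = 0.195). Slc8a3, a sodium-calcium exchanger, read 1.09, 1.04 and 0.23 in controls and 0.13, 0.20 and -0.18 with ADP. Its control 3 stood close to ADP 2, and the difference of -0.74 ± 0.25 (adjusted p = 0.321) was -0.93 within slide 1 and -0.22 within slide 2. Slc9a7, a sodium-proton exchanger of the Golgi network, read -0.96, -0.98 and -0.76 in controls and -1.83, -1.17 and -1.70 with ADP. Every ADP array was below every control, at -0.66 ± 0.19 (adjusted p = 0.284). Slc9a7 and the sulfate transporter Slc26a11 (-0.38 ± 0.09 with the slide as a block) were the ion carriers called lower with the slide block.

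Both ion carriers of general upkeep named here passed neither test: the sodium-potassium-chloride cotransporter Slc12a2 at -0.096 ± 0.10 and the phosphate importer Slc20a1 at -0.16 ± 0.15. Of 5 measured sodium pump subunits and kinases of chloride cotransporters, 1 had an unadjusted p under 0.05, the kinase gene Wnk1 at -0.27 ± 0.11. With the slide block, Wnk1 was called lower (-0.31, adjusted p = 0.0314) and the pump subunit gene Atp1b3 higher (0.27, adjusted p = 0.0342).

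Of 17 zinc transporters, 6 were above 0, and the median was -0.058, turning to 0.020 in the unscaled value table and to 0.016 without control 3. One importer read lower and 1 higher. Slc39a13, which releases zinc from the Golgi and vesicles and whose loss in mice disturbs bone and connective tissue, was measured by a probe at mm9 chr2:90901965-90902024. It read 3.86, 3.65 and 3.84 in controls and 3.23, 3.30 and 3.02 with ADP. The lowest control was well above the highest ADP array, and the difference was -0.60 ± 0.12 (adjusted p = 0.26), a 1.52-fold lower signal, with -0.53 and -0.68 within the slides. It was called with the slide block and trended, robust variances (adjusted p = 0.0211). Slc39a4, the importer known from the intestine, read 6.37, 6.42 and 6.49 in controls and 6.65, 6.63 and 6.72 with ADP. Its difference was small, at 0.24 ± 0.10 (adjusted p = 0.38), and 0.12 after quantile normalization, where all arrays are brought to one distribution. It was called with the slide block at an adjusted p of 0.0498, next to the threshold.

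No other zinc transporter was called. The importers Slc39a1, Slc39a6, Slc39a8, Slc39a10 and Slc39a14 differed by -0.014, -0.068, -0.087, -0.074 and 0.077, with errors between 0.10 and 0.14. Of these, the values of Slc39a1, Slc39a6 and Slc39a10 turned positive in the unscaled value table, and that of Slc39a8 without control 3. Slc30a1, the zinc exporter of the plasma membrane, read 1.09, 1.09 and 1.61 in controls and 0.94, 1.54 and 1.37 with ADP, a difference of 0.020 ± 0.21. The groups of Slc30a1 overlapped across slides, yet on each slide every ADP array was below every control array. With the slide as a block its difference was -0.15 ± 0.08. Slc30a5 and Slc30a7, which load zinc into the secretory pathway, differed by -0.060 ± 0.18 and -0.0063 ± 0.09, and both turned positive in the unscaled value table. Zinc-binding metallothioneins and their regulator, 4 genes in all, included 0 at an unadjusted p under 0.05 in limma without a block, with Mt1 at 0.12 ± 0.13, Mt2 at -0.24 ± 0.10 and Mtf1 at 0.36 ± 0.16. The groups of Mt2 and of Mtf1 did not overlap. With the slide block, Mt2 was at -0.26 and Mtf1 at 0.28, and neither was called (adjusted p = 0.0537 and 0.205).

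Of 34 mitochondrial carriers, 16 were above 0, with a median of -0.030, which was 0.047 in the unscaled value table. At an unadjusted p under 0.05 stood 3 higher and 2 lower, and 4 higher and 2 lower were called with the slide block. Both mitoferrins, the iron importers of the inner membrane, were among the higher. Slc25a37 (mitoferrin 1, mm9 chr14:69860020-69860079) read 4.16, 4.20 and 4.13 in controls and 4.58, 4.41 and 4.74 with ADP. The controls lay close together and all ADP arrays above them, at a difference of 0.41 ± 0.12 (adjusted p = 0.284). Its second probe, fitted as a feature of its own, differed by 0.53 ± 0.20. Slc25a28 (mitoferrin 2, mm9 chr19:43738444-43738503) read 2.54, 2.65 and 2.67 in controls and 3.00, 2.91 and 3.10 with ADP, a difference of 0.38 ± 0.10 (adjusted p = 0.273). Within slides 1 and 2 the differences were 0.39 and 0.44 for Slc25a37 and 0.41 and 0.33 for Slc25a28. Both were called with the slide block, at adjusted p of 0.0325 and 0.0316.

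Slc25a30, a carrier of the uncoupling protein branch, read -0.12, 0.07 and -0.62 in controls and 0.26, 0.21 and 0.26 with ADP. Control 3 was the lowest, and the difference of 0.47 ± 0.19 (adjusted p = 0.375) was 0.28 within slide 1 and 0.86 within slide 2. Slc25a30 was called with the slide block (adjusted p = 0.0411). The related Slc25a14 differed by 0.25 ± 0.13, and by 0.32 ± 0.08 with the slide as a block, and it was called with that block and trended, robust variances. Lower was Slc25a43, a carrier with no settled substrate, at -0.63, -0.79 and -0.64 in controls and -1.04, -1.02 and -1.18 with ADP. Its groups were well apart, at -0.39 ± 0.11 (adjusted p = 0.273), but it was not called with the slide block (adjusted p = 0.0671). Both aspartate-glutamate carriers of the malate-aspartate shuttle read lower: Slc25a12 at 3.11, 2.99 and 3.28 in controls against 2.85, 2.82 and 2.89 with ADP (-0.28 ± 0.11, adjusted p = 0.383), and Slc25a13 at -0.30 ± 0.19, or -0.43 ± 0.11 with the slide as a block. Slc25a11, the oxoglutarate-malate carrier of that shuttle, differed by -0.22 ± 0.15, or -0.32 ± 0.09 with the block, and it and Slc25a13 were called with the slide block.

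The housekeeping carriers of mitochondria named here passed neither test. The ADP/ATP carriers Slc25a4 and Slc25a5 differed by -0.16 ± 0.11 and 0.0096 ± 0.12, the latter turning to -0.038 after quantile normalization. The phosphate carrier Slc25a3 was at 0.035 ± 0.12, turning to -0.030 after quantile normalization, the citrate carrier Slc25a1 at -0.23 ± 0.16, and Slc25a39, which brings glutathione into mitochondria, at 0.17 ± 0.13. The calcium uniporter and outer membrane pores, 9 genes, had 0 members at an unadjusted p under 0.05 in limma and a median of 0.054.

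**Figure D3:**
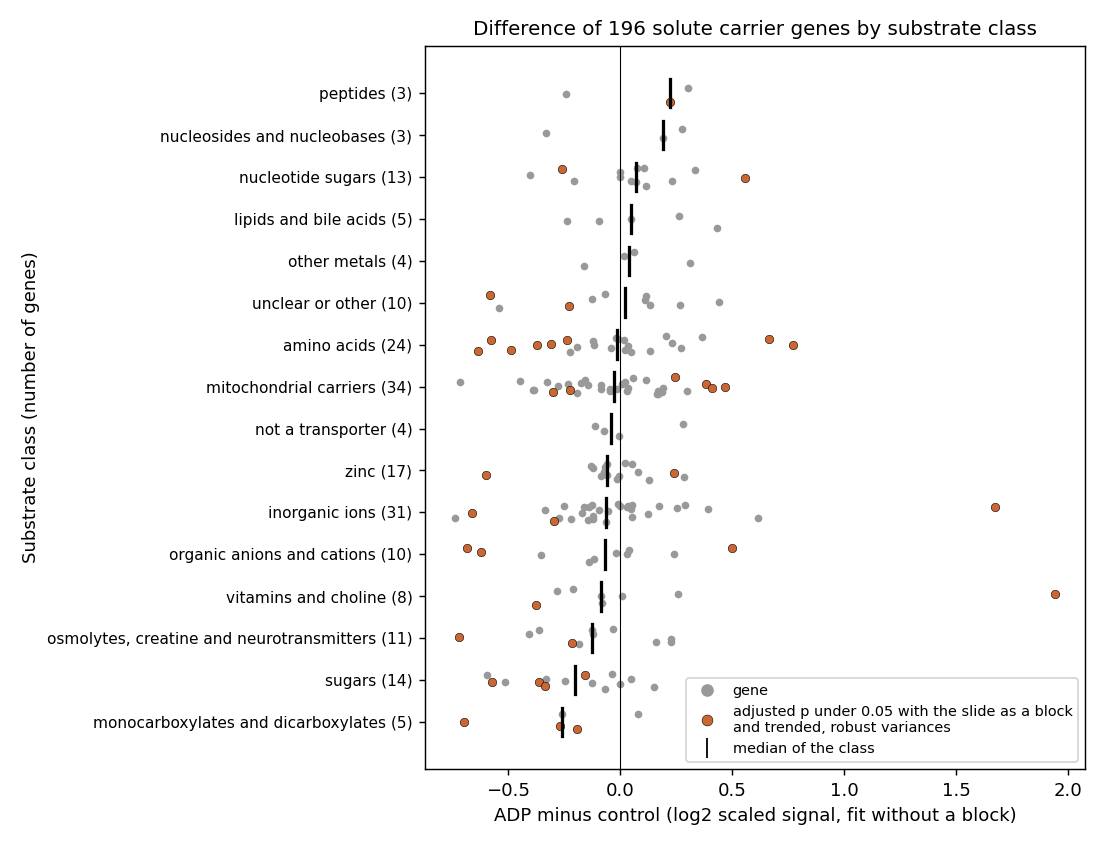
Difference between ADP and control (log2, horizontal axis) of each of the 196 genes by substrate class, with the number of genes in brackets; each point is 1 gene, orange marks an adjusted p under 0.05 with the slide as a block and trended, robust variances, and black bars are class medians. The lowest class medians were those of the monocarboxylate and dicarboxylate carriers (-0.26) and the sugar carriers (-0.20), and most other classes were centred near 0.

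Sugar transporters were the class of more than 5 genes with the lowest median. Of 14, 12 were below 0, and the median was -0.20, with 4 called lower and 0 higher with the slide block. The median stayed below 0 in every setting run, from -0.30 to -0.13, the latter in the unscaled value table. Slc2a3, the high-affinity glucose transporter GLUT3, was measured at mm9 chr6:122678075-122678134. It read -0.33, -0.38 and -0.041 in controls and -0.97, -0.53 and -0.97 with ADP. All ADP arrays were below all controls, at a difference of -0.57 ± 0.17 (adjusted p = 0.286), with -0.61 and -0.71 within the slides. Slc2a6, a hexose transporter of the lysosome, read 4.81, 4.69 and 5.34 in controls and 4.29, 4.84 and 4.62 with ADP. Across slides its groups overlapped, and within slides 1 and 2 it differed by -0.46 and -0.61. Slc50a1, a sugar exporter, read 2.83, 2.65 and 3.26 in controls and 2.28, 2.75 and 2.70 with ADP, and differed by -0.46 and -0.53 within the slides. Slc37a2, a sugar phosphate exchanger rich in macrophages, differed by -0.16 ± 0.24, or -0.36 ± 0.09 with the slide as a block, and its other probe by -0.35 ± 0.13. Without control 3, Slc37a2 turned to 0.068 without the block. Slc2a3, Slc2a6, Slc50a1 and Slc37a2 were the 4 called. The intracellular Slc2a8 differed by -0.33 ± 0.18, Slc45a4 by -0.52 ± 0.20 with overlapping groups, and Slc37a4, which carries glucose 6-phosphate into the endoplasmic reticulum, by -0.25 ± 0.11, although a second, dim probe of Slc37a4 gave 0.13 ± 0.19.

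Of 5 carriers of monocarboxylates and dicarboxylates, 4 were below 0. Their median of -0.26 was -0.023 without control 3. Slc13a2, a sodium-coupled citrate and succinate transporter, read -2.40, -2.83 and -2.00 in controls and -3.28, -2.95 and -3.09 with ADP. Control 2 and ADP 2 were close, and the difference was -0.70 ± 0.22 (adjusted p = 0.3), and -0.36 with normexp. Slc13a2 was called lower with the slide block (adjusted p = 0.0307). Slc16a13 and Slc16a6, 2 carriers of the lactate transporter family, were also called lower with the slide block, at -0.52 ± 0.11 and -0.33 ± 0.09. Without the block, Slc16a13 was at -0.27 and turned to 0.025 without control 3, and Slc16a7, a pyruvate and lactate transporter, was at -0.26 ± 0.11.

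Among vesicular carriers of the SLC17 and SLC18 families, every measured gene but Slc18a2 was below 0 without a block, some by less than their error. Slc18a1, a vesicular monoamine transporter (mm9 chr8:71561627-71561686), had the smallest unadjusted p of all 196 genes. It read -0.25, -0.30 and -0.20 in controls and -1.09, -0.71 and -1.10 with ADP. The controls lay close together and the ADP arrays well below, at a difference of -0.72 ± 0.14 (adjusted p = 0.26), a 1.65-fold lower signal. Slc17a9, the vesicular nucleotide transporter that loads ATP and ADP for release, was measured at mm9 chr2:180476906-180476965. It read 0.019, -0.10 and 0.14 in controls and -0.74, -0.33 and -0.74 with ADP, a difference of -0.62 ± 0.15 (adjusted p = 0.261), with -0.70 and -0.68 within the slides. Both were called with the slide block, at adjusted p of 0.0211 and 0.0219. The other measured members of these families were not called: the monoamine carrier Slc18a2 differed by 0.16 ± 0.16, the acetylcholine carrier Slc18a3 by -0.19 ± 0.13, the glutamate carrier Slc17a8 by -0.41 ± 0.60, turning to 0.075 with the slide block, and the lysosomal sialic acid carrier Slc17a5 by -0.14 ± 0.22. Of the osmolyte and creatine carriers, Slc6a6 (taurine) differed by -0.12 ± 0.13 and Slc6a8 (creatine) by 0.22 ± 0.12, and Slc5a3 (myo-inositol) was called lower with the slide block at -0.37 ± 0.09.

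Among organic ion carriers, Slc22a15 read -2.48, -2.58 and -2.18 in controls and -3.40, -2.92 and -2.98 with ADP. Its difference of -0.69 ± 0.17 (adjusted p = 0.261) was -0.36 with normexp, and the probe was dim. Slc22a4, a transporter of ergothioneine, read 2.05, 2.16 and 1.55 in controls and 2.56, 2.17 and 2.53 with ADP. Control 2 and ADP 2 were almost level, and the difference was 0.50 ± 0.20 (adjusted p = 0.373). Both were called with the slide block.

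**Figure D4:**
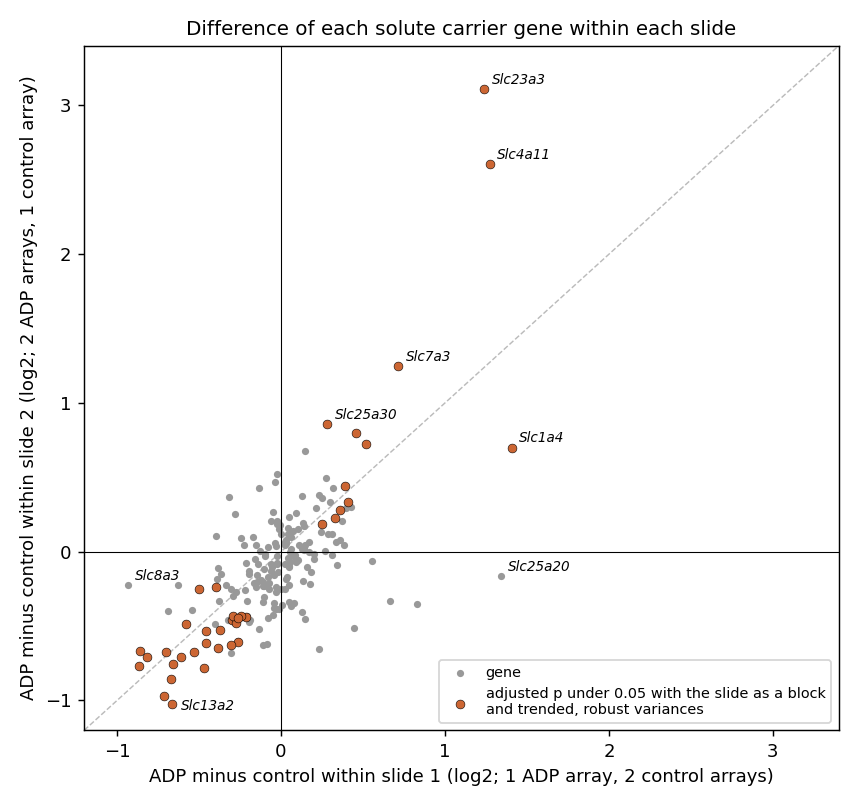
Difference of each of the 196 genes within slide 1 (horizontal axis, 1 ADP and 2 control arrays) and within slide 2 (vertical axis, 2 ADP arrays and 1 control array), in log2, with the line of equal values dashed; orange points were called with the slide as a block and trended, robust variances. Slc23a3 and Slc4a11 lay far above the line, at 3.11 and 2.60 on slide 2 against 1.24 and 1.27 on slide 1, and Slc1a4 below it, and 139 genes (70.9%, against 62.0% of all features) had the same sign on both slides.

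Nucleotide sugar transporters of the SLC35 family, which supply the Golgi with building blocks of glycans, had a median of 0.069 over 13 genes, 8 of them above 0. Slc35a5 read -1.85, -1.71 and -2.08 in controls and -1.26, -1.60 and -1.12 with ADP. Control 2 and ADP 2 were close, and the difference was 0.55 ± 0.17 (adjusted p = 0.29). Slc35a5 was called higher with the slide block (adjusted p = 0.0478). Slc35b2, which carries the sulfate donor into the Golgi, was called lower with the slide block at -0.34 ± 0.09. Slc35e4, a member without an assigned substrate, read 3.73, 3.77 and 3.80 in controls and 4.02, 4.09 and 4.49 with ADP, a difference of 0.44 ± 0.15 (adjusted p = 0.312) that was not called with the block. Slc33a1, which carries acetyl-coenzyme A into the endoplasmic reticulum, differed by 0.26 ± 0.11 (adjusted p = 0.385), and Slc35f5, an SLC35 member in the class of unclear substrates, was called lower with the block at -0.36 ± 0.08.

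Both oligopeptide and histidine transporters of the endolysosome, which take part in signalling by nucleic acid sensors, were measured, and they differed in opposite directions. Slc15a3 read 5.72, 5.68 and 5.58 in controls and 6.03, 5.74 and 5.88 with ADP, a difference of 0.22 ± 0.12 (adjusted p = 0.508). Slc15a4 read 6.01, 5.94 and 5.98 in controls and 5.76, 5.65 and 5.80 with ADP, a difference of -0.24 ± 0.10 (adjusted p = 0.385). Neither group pair overlapped. Slc15a3, at 0.28 ± 0.08 with the slide as a block, was called once trended, robust variances were added (adjusted p = 0.0353), and Slc15a4, at -0.24 ± 0.08, was not (adjusted p = 0.0607).

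The remaining classes held few genes. Slc44a2, a choline transporter of the plasma membrane and mitochondria, read 4.12, 3.93 and 4.45 in controls and 3.72, 3.86 and 3.79 with ADP. Control 2 and ADP 2 were close, and the difference was -0.38 ± 0.15 (adjusted p = 0.381). Slc44a2 was called lower with the slide block (adjusted p = 0.0252). Slc27a4, a fatty acid transporter and acyl-coenzyme A synthetase, read -2.09, -2.07 and -1.96 in controls and -1.76, -1.69 and -1.37 with ADP, a difference of 0.43 ± 0.13 (adjusted p = 0.298) that was not called with the block. Of the metal carriers, the iron transporter Slc11a2 differed by -0.16 ± 0.10 without overlap of the groups, although its second probe gave 0.24 ± 0.25, the copper importer Slc31a1 was at 0.060 ± 0.14 and turned to -0.030 with the slide block, and the heme carrier Slc48a1 was at 0.31 ± 0.16 (adjusted p = 0.508). The nucleoside carrier Slc29a2 had the smallest p of its class, and differed by -0.33 ± 0.16 (adjusted p = 0.457). Of the 4 genes that bear the Slc symbol without being transporters, none was called, and Slc9a3r2, a scaffold of the SLC9 exchangers, differed by 0.28 ± 0.30.

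Transporters that are numbered as solute carriers but bear other symbols were set beside these genes. Of 29 measured, the median difference was 0.029, and at an unadjusted p under 0.05 there were 2 higher and 3 lower. Higher were Slco3a1, an organic anion transporter, at 0.42 ± 0.13, and the sphingosine 1-phosphate exporter Spns2 at 0.34 ± 0.13. Lower were Ank, an exporter of ATP and pyrophosphate, at -0.58 ± 0.14, the mitochondrial serine carrier Sfxn1 at -0.30 ± 0.11, and Nipa1 at -0.34 ± 0.13. With the slide block, Slco3a1 was called higher, and Ank, Spns1 and Slco4a1 were called lower, at -0.65, -0.23 and -0.40.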

How the data were processed

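RNA of 3 control and 3 ADP-exposed macrophage samples was measured on one-colour arrays, with groups taken from the sample titles. Spot intensity was extracted by the authors, as deposited, with Agilent Feature Extraction 10.7.1.1, per the file headers and the submitters' processing notes, with background subtracted and no scaling between arrays. The deposited value table held the same intensity, unscaled, within 0.001 log2 for 100% of 55681 probes on each array, with column medians from 18.7 to 22.7. Probe coordinates are those of the files, on mm9.

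Here, control and outlier spots were left out, spots of a probe were averaged, and the array's 75th percentile was subtracted on the log2 scale. Probes were kept that passed the background flag on every array of a group, with 1 probe per gene, the brightest by mean. For the solute carriers it was the brightest probe that bears an Slc name, which departs from the planned rule for Slc9a7 and Slc16a7, whose brightest probe carries a clone name. The 19575 features were fitted with limma 3.58.1 (lmFit, eBayes) in R 4.3.3, two-sided, with Benjamini-Hochberg adjustment at a threshold of 0.05. The fits without a block and with the slide block were tested on simulated data, and those with trended, robust variances were not. Of simulated 2-fold changes, 36.4% were recovered without the block and 69.2% with it, at a mean of 1.4 and 6.4 false calls. Of 47 genes with several carrier probes, 32 had the same sign in all of them, and 0 had opposite signs with an unadjusted p under 0.05 for each. The precision is limited by the number of arrays, and p-values measure the spread between these samples. Symbols were updated, and promoters taken, from RefSeq tables of GRCm38.p6, so that Slc24a6 is given as Slc8b1 and counted among the ion carriers.

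Alternatives were the slide as a block, within-slide differences, the replicate number as a block, trended and robust variances, normexp background correction (offset 50), quantile or median scaling, the value table, other filters and other rules for probes, and leaving out each array. The slide block with trended, robust variances under other scalings or without single arrays was chosen after seeing the data. The carriers, classes and lists were chosen with earlier results of these data known. The rule for named genes took, per direction, the 12 smallest unadjusted p among carriers whose groups do not overlap, as none passed the adjusted test, the smallest p of each class, and a fixed list. The values of some genes are not reported here.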

Additional observations from a re-analysis of the deposited data

How the results depend on the processing

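Over all 85 named genes, 1571 of 1638 alternatives kept the direction and 67 turned it. For 24 of them, chosen for separate groups, that choice fixes the sign without single arrays and within slides. Deviations of same-numbered arrays correlated at r = 0.42, -0.40 and 0.43, the negative value for the pair split over the slides. Control and ADP arrays on 1 slide correlated at 0.42 to 0.47 whatever their number, and those on different slides at -0.60 to -0.27. The sign of the correlation thus went with the slide and not with the number, and the numbers were not used as pairs. With the replicate block, 26 carriers had an unadjusted p under 0.05 and 0 passed the adjusted test. Without a block, 0 passed and 29 had an unadjusted p under 0.05. These counts became 0 adjusted and 69 unadjusted with the slide as a block, 38 adjusted and 74 unadjusted with the slide as a block and trended, robust variances, and 15 unadjusted in the unscaled value table, where 25 carriers in place of 46 had separate groups. Leaving out each array gave 0 adjusted calls each time, 15 to 30 unadjusted, 49 to 79 with separate groups (fewer arrays overlap less often) and 0 to 37 called with the slide block and trended variances, the lower end without control 1. For the 26, 74 and 25, and for the unadjusted and separate-group counts without single arrays, the share of all features was not taken.

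The median over the carriers was -0.069 with array-median scaling, 0.032 in the value table, -0.021 with each probe on its own, -0.026 within slide 1 and -0.10 within slide 2, and -0.067 to 0.0016 over left-out arrays. In the value table the medians were 0.063 for amino acids, 0.012 for ions, 0.047 for mitochondrial carriers and 0.020 for zinc. Ions gave -0.035 with normexp and -0.15 within slide 2, and mitochondrial carriers 0.039 within slide 1 and -0.15 within slide 2. Over left-out arrays the medians ranged from -0.081 to 0.037 for amino acids, -0.081 to 0.011 for ions, -0.058 to -0.0061 for mitochondrial carriers and -0.099 to 0.016 for zinc. The cause of these shifts was not tested.

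With array-median scaling, Slc25a5 was at -0.014, Slc30a1 at -0.0038 and Slc38a9 at -0.0056. After quantile normalization, Slc25a3 was at -0.030, Slc25a5 at -0.038 and Slc30a7 at 0.0042. In the value table, Slc7a7 was at 0.069, Slc7a8 at 0.034, Slc30a5 at 0.017, Slc30a7 at 0.071, Slc39a1 at 0.064, Slc39a6 at 0.0091, Slc9a9 at 0.012 and Slc39a10 at 0.0036. With normexp, Slc7a2 was at -0.0021, Slc7a7 at 0.0031, Slc25a3 at -0.0059 and Slc30a7 at 0.034. With the mean of a gene's probes, Slc11a2 was at 0.039 and Slc30a7 at 0.048, and other probes gave -0.096 for Slc7a5, 0.24 for Slc11a2, 0.087 and 0.063 for Slc30a7 and 0.13 for Slc37a4. With the slide as a block, with or without trended, robust variances, Slc7a8 was at 0.073, Slc17a8 at 0.075, Slc30a1 at -0.15, Slc31a1 at -0.030 and Slc38a9 at -0.027. Over left-out arrays, differences that turned sign ranged from -0.20 to 0.046 for Slc7a8, -0.11 to 0.19 for Slc30a1, -0.046 to 0.064 for Slc38a9, -0.066 to 0.28 for Slc7a5, -0.085 to 0.12 for Slc7a7, -0.046 to 0.085 for Slc25a3, -0.070 to 0.070 for Slc25a5, -0.17 to 0.090 for Slc30a5, -0.025 to 0.016 for Slc30a7, -0.30 to 0.068 for Slc37a2, -0.13 to 0.033 for Slc39a6, -0.17 to 0.016 for Slc39a8, -0.15 to 0.021 for Slc39a10, -0.48 to 0.025 for Slc16a13, -0.077 to 0.11 for Slc39a1, -0.0044 to 0.098 for Slc7a2, -0.36 to 0.012 for Slc17a5, -0.90 to 0.095 for Slc17a8, and -0.016 to 0.17 for Slc31a1. Dim probes near background limit the size of differences such as that of Slc23a3.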

Other observations

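Carriers of the lysosomal membrane were looked at together after their values had been seen, so the group supports nothing by itself. Of 13 measured, 10 were below 0, with a median difference of -0.22 (log2), against -0.046 over all carriers. The 13 came from the carriers that met the rule. Lysosomal transporters measured outside it included Ctns (0.18 ± 0.14), Mfsd1 (0.17 ± 0.11), Slc66a1 (0.029 ± 0.17), Npc1 (-0.041 ± 0.10) and Spns1 (-0.11 ± 0.16). Called lower with the slide block and trended, robust variances were Slc46a3 (-0.76 ± 0.17), which exports catabolites from lysosomes, Slc2a6 (-0.53 ± 0.10), Slc36a1 (-0.45 ± 0.08) and Slc26a11 (-0.38 ± 0.09), and called higher was Slc15a3 (0.28 ± 0.08). Slc46a3 read 4.13, 3.89 and 4.65 on controls 1 to 3 and 3.34, 4.05 and 3.53 on ADP 1 to 3, so that ADP 2 lay above control 2. The sensor Slc38a9 and the heme carrier Slc48a1 were above 0 without a block and were not called.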
